A study of Mus musculus with 6 samples.

Results

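The genes described here are 9 genes of red blood cells that an embryonic kidney carries in its vessels. They are the embryonic globin genes Hba-x, Hbb-y and Hbb-bh1, the heme synthesis genes Alas2 and Cpox, the membrane protein genes Slc4a1 and Epb42, and the erythroid transcription factor genes Klf1 and Gata1. Their members were taken from the annotation of the array: every probe set with 1 of these symbols and no other was used, which gave 18 probe sets of 45101, for 9 of the 18193 genes that had a probe set with a single symbol. RNA of whole kidneys from mouse embryos at embryonic day 12.5 was hybridized to Affymetrix mouse whole-genome arrays, 1 array per biological replicate. One group was Ret-deficient (3 samples) and the other wild-type (3 samples), all with the strain given as C57BL/6. Ret encodes the receptor for GDNF through which the ureteric bud grows and branches. The labels name neither the Ret allele nor the litters, and they do not say whether the kidneys were rinsed free of blood. The source field places the knockout in the pregnant female, and the titles and genotype fields, which place it in the kidney, were followed here.

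Blood of the mid-gestation mouse embryo holds 2 generations of red cells. Primitive erythroid cells arise in the yolk sac, circulate with their nuclei and carry embryonic globins. Definitive erythroid cells arise mainly in the fetal liver, carry adult globins and enter the blood around the stage sampled here. GATA1 and KLF1 are DNA-binding factors that switch on globin, heme and membrane genes in both kinds of cell, GATA1 at GATA motifs and KLF1 at CACCC-type motifs. Because red cells reach the kidney through its vessels, these genes were read here as a measure of blood content, though they did not all rank the samples alike. In whole tissue, fewer red cells, less RNA per red cell and another mix of red cell stages cannot be told apart.

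The measurement was the deposited MAS5 signal, which had a mean of 2500 on every array after 2 percent was trimmed at each end, and a median between 258.9 and 351.6. As a gauge of background, each array's floor was set at the brightest of its 27 Bacillus control probe sets, which lay between 97.2 and 186.9. Ret itself (probe set 1436359_at) read 93.3, 479.8 and 334.1 in Ret-deficient kidneys and 13315, 11042 and 10193 in wild-type kidneys, so the labels held for this gene. Its log2 difference of -5.43 (SE 0.54) had an adjusted p of 0.299 in limma, and with the allele not named it is not known whether the probe set lies in a deleted part. All 7 kidney marker genes measured, among them Wt1 and Sall1, lay above the floor on all 6 arrays. Wild-type replicate 1 stood apart in RNA quality, with a 3 prime to 5 prime signal ratio for beta-actin of 10.7, where the other arrays lay between 3.88 and 5.21. Ret-deficient replicate 2, the array on which the erythroid genes read highest, had a ratio of 3.88. Differences are given as log2(signal + 16), Ret-deficient minus wild-type, from a limma fit over the 22519 probe sets whose mean signal was at or above the median. The value added makes the fold change of dim probe sets look smaller than it is.

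The erythroid genes did not separate Ret-deficient from wild-type kidneys. Most of them read highest in 1 sample, Ret-deficient replicate 2. The 14 erythroid probe sets bright enough to be tested came from 8 genes, so some are repeated readings of the same gene. Of these 14, 11 read highest on Ret-deficient replicate 2, which was the highest array for 16.7% of all tested probe sets. This array stood at least 1.5-fold above every other array for 5 of the 14, beside 1.27% of all tested probe sets. There the tested probe sets of Alas2, Slc4a1, Klf1 and Gata1 stood 1.24 to 2.15 log2 units above their wild-type mean, and those of the embryonic globins 0.10 to 0.65. Cpox lay between, with 0.41 for its brightest probe set, 1422492_at, and 1.14 for 1422493_at in this sample. Group differences are therefore given with and without this sample.

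Of the 14 tested probe sets, 0 had a Benjamini-Hochberg adjusted p under 0.05 in limma, nor did any of the 22519 tested across the array (0%). At an unadjusted p under 0.05 the count was also 0 of 14, where 5.36% of all tested probe sets passed. In 0 of the 14 did the groups lie apart without overlap, where this was so for 10.8% of all tested probe sets. Of the differences, 9 were positive and 5 negative, with a median of 0.04, beside a median of -0.0097 over all tested probe sets. Without Ret-deficient replicate 2, 3 were positive and 11 negative, and the median was -0.14, beside -0.0060 over all tested probe sets. Because that sample was singled out for reading highest on these genes, leaving it out lowers their differences by construction. Without Ret-deficient replicate 3 the median was 0.24, and with arrays weighted by quality it was 0.19.

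With Ret-deficient replicate 1, 2 or 3 left out, the groups of 1, 1 and 0 of the 14 probe sets lay apart, where 20.4%, 18.6% and 28.7% of all tested probe sets did. With wild-type replicate 1, 2 or 3 left out, the counts were 2, 0 and 0 of 14, where 21.5%, 16.2% and 20% of all did. An unadjusted p under 0.05 was reached by 0, 1 and 0 of the 14 without Ret-deficient replicate 1, 2 or 3, where 5.41%, 4.85% and 9.5% of all tested probe sets reached it. It was reached by 0 of the 14 without wild-type replicate 1, 2 or 3, where 5.25%, 3.67% and 4.67% of all did. The 1 without Ret-deficient replicate 2 was a probe set of Cpox, in a comparison whose left-out sample was chosen by these genes.

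**Figure D1:**
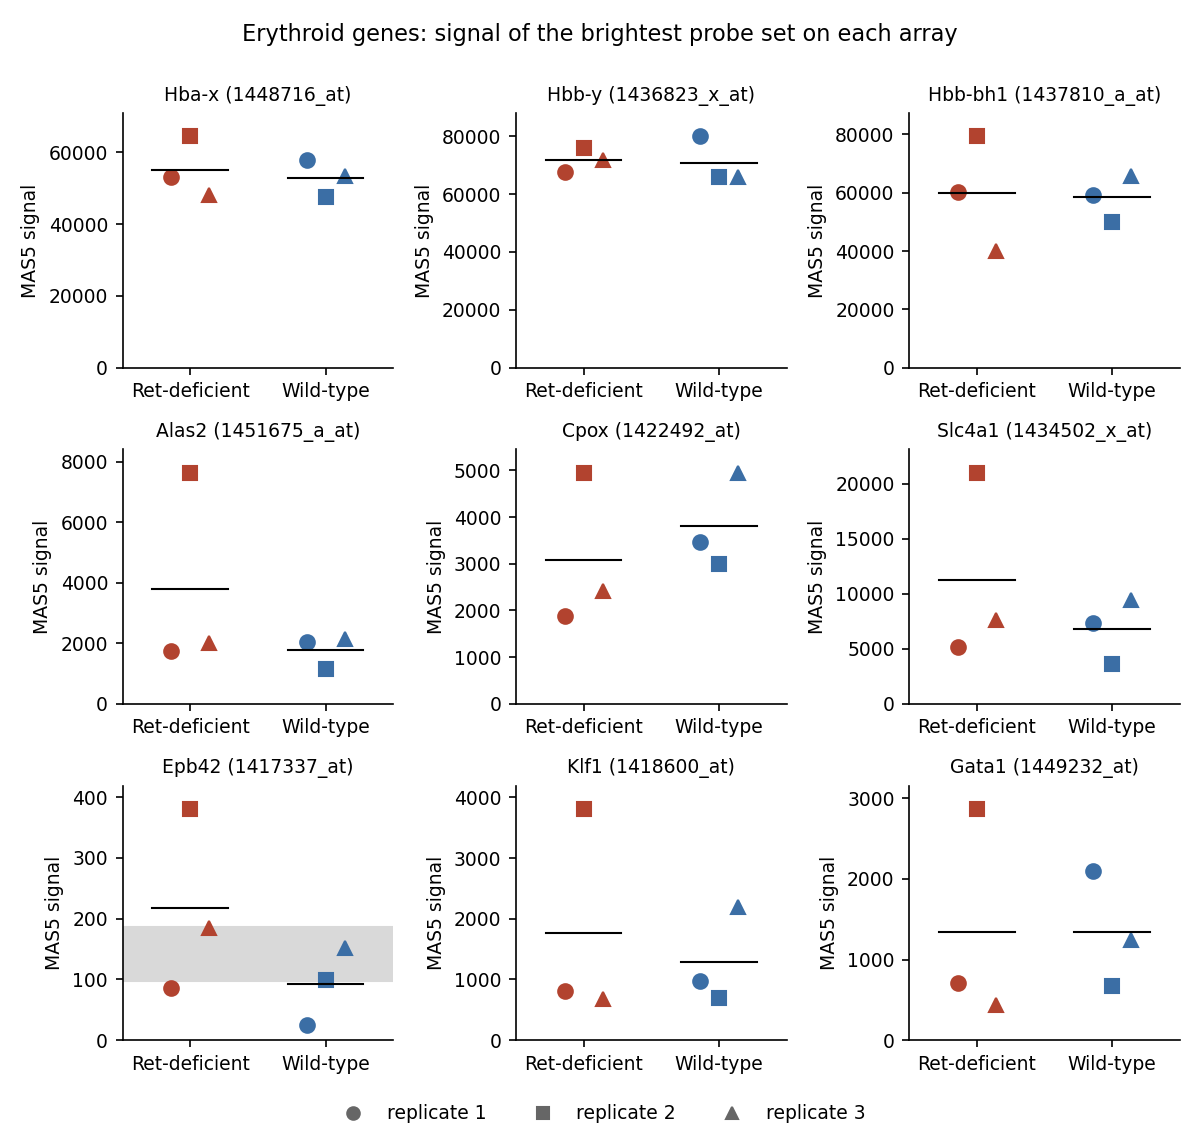
MAS5 signal of the brightest probe set of each of the 9 erythroid genes in Ret-deficient (red, left) and wild-type (blue, right) kidneys, 1 point per array with a marker shape for each replicate number and a line at the group mean (n = 3). The grey band in the Epb42 panel spans the floors of the 6 arrays. In the panels for Alas2, Slc4a1, Klf1 and Gata1, Ret-deficient replicate 2 lies above the other 5 arrays, while the points for Hba-x and Hbb-y lie close together.

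For a view of the DNA to which GATA1 and KLF1 could bind, the 250 bases before the start of 4 members are shown, of which 2 are embryonic globin genes that hardly varied between samples and 2 are genes that varied severalfold. They are RefSeq sequences of build GRCm38.p6, written 5′ to 3′ on the strand of the gene. Capitals mark a GATA motif, which may read AGATAA or, with another last base, AGATAG, and equally TGATAA or, with another last base, TGATAG. They also mark a CACCC-type motif, with the letters CCNCNCCC. Both strands were searched, and motifs may overlap. The window of Hba-x is chr11:32276350-32276599 on the plus strand, that of Hbb-y chr7:103853208-103853457 on the minus strand, that of Alas2 chrX:150547167-150547416 on the plus strand and that of Klf1 chr8:84901732-84901981 on the plus strand.
Hba-x: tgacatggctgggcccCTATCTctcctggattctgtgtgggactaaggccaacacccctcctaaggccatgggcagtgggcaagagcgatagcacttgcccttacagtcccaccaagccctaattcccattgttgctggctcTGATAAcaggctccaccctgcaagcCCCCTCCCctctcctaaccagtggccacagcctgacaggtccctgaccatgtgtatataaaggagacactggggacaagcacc
Hbb-y: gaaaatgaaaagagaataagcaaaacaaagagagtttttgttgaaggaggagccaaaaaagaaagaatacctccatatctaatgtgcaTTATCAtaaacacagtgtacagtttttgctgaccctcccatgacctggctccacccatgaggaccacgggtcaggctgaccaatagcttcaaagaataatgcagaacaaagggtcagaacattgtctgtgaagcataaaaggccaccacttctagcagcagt
Alas2: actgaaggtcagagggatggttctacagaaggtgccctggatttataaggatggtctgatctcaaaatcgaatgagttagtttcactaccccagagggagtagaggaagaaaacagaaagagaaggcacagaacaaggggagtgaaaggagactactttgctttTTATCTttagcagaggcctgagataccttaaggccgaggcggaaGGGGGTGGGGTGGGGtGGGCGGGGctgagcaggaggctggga
Klf1: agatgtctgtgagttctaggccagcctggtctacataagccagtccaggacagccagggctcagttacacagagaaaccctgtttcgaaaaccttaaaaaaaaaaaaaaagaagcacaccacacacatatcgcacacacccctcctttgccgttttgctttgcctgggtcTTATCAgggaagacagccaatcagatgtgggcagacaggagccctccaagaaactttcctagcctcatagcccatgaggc

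Hba-x held 2 GATA motifs and 1 CACCC-type motif, Hbb-y 1 GATA motif, and Klf1 1 GATA motif. Alas2 held 1 GATA motif, 86 to 81 bases before its start, and 4 CACCC-type matches between 42 and 19 bases before it, several of which overlap. Cpox held 2 GATA motifs that share a base, 91 to 86 and 86 to 81 bases before the start. Epb42 had 1 GATA motif at 226 to 221 bases, and Gata1 had 3 CACCC-type motifs and 0 GATA motifs in the window of its listed start. Thus 6 of the 7 members with a listed window had a GATA motif, where 26.5% of 32851 windows of the same length had one. A match to CCNCNCCC was present for 3 of the 7 members and for 45.9% of all windows. The shorter letters CACCC were not searched on their own. They occur unmarked in the windows of Hba-x, Hbb-y and Klf1, and on the other strand in that of Cpox. The count thus does not show which members lack a CACCC box. A match is a description of letters and does not show that a factor was bound in these kidneys. Slc4a1 and Hbb-bh1 were not matched.

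The embryonic globins were the steadiest members. Hba-x encodes zeta globin, the alpha-type chain of primitive red cells. Its probe set 1448716_at read 52983, 64412 and 48201 in Ret-deficient kidneys, against 57747, 47563 and 53446 in wild-type kidneys. The groups overlapped throughout, and the highest array stood 1.35-fold above the lowest. The log2 difference was 0.05 (SE 0.18, 95% interval -0.38 to 0.49, limma adjusted p = 0.988), and -0.06 without Ret-deficient replicate 2.

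Hbb-y encodes epsilon-y globin, a beta-type chain of primitive red cells. Its brightest probe set, 1436823_x_at, read 67812, 76099 and 71704 in Ret-deficient kidneys, against 79963, 66032 and 65976 in wild-type kidneys. Here wild-type replicate 1 and not Ret-deficient replicate 2 was the highest array, and the whole span was 1.21-fold. Between the groups it differed by 0.03 on the log2 scale (SE 0.16, 95% interval -0.36 to 0.41, adjusted p = 0.992). A second probe set, 1436717_x_at, averaged 70629 ± 3841 in Ret-deficient and 70395 ± 7002 in wild-type kidneys (mean ± SD, n = 3 each). The third, 1450621_a_at, averaged 54611 ± 4194 in Ret-deficient and 52751 ± 2368 in wild-type kidneys. All 3 spanned 1.15- to 1.21-fold over the arrays. The ending x_at marks a probe set whose probes may also match related genes, which concerns 2 of the 3 for Hbb-y.

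Hbb-bh1 encodes beta-h1 globin, the other embryonic beta-type chain, and it varied more than Hbb-y. Its brightest probe set, 1437810_a_at, read 60130, 79325 and 40022 in Ret-deficient kidneys, against 59397, 50097 and 65917 in wild-type kidneys. The Ret-deficient samples held both the highest and the lowest value, so the group difference was near 0 (log2 difference -0.01, SE 0.28, 95% interval -0.67 to 0.65, adjusted p = 0.999). The dimmest of its probe sets, 1450736_a_at, showed the same order within the Ret-deficient group more steeply, with 28786, 50219 and 20363 in Ret-deficient and 33991, 26574 and 36393 in wild-type kidneys. Its highest array stood 2.47-fold above its lowest, against 1.98-fold for 1437810_a_at and 1.65-fold for 1437990_x_at. Without Ret-deficient replicate 2 the 3 probe sets had log2 differences of -0.40, -0.24 and -0.21. The globin signals lay below the highest signal of any probe set on each array, which was 101210 to 123788. Whether their scans were near saturation was not tested, because raw probe intensities were not used here.

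Heme synthesis was represented by its first erythroid step and by a late one. Alas2, the erythroid form of 5-aminolevulinate synthase, makes the first intermediate of heme in red cell precursors. Its probe set 1451675_a_at read 1744, 7640 and 2006 in Ret-deficient kidneys, against 2043, 1146 and 2140 in wild-type kidneys. Ret-deficient replicate 2 stood 3.57-fold above the next highest array, while the other Ret-deficient samples lay within the wild-type range. On the log2 scale the groups differed by 0.80 (SE 0.59, 95% interval -0.60 to 2.20, adjusted p = 0.950), the largest positive one among the tested members, and it was 0.13 without that sample.

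Cpox encodes coproporphyrinogen oxidase, a late enzyme of the pathway that most cells use and red cell precursors use heavily. Its brightest probe set, 1422492_at, read 1884, 4949 and 2423 in Ret-deficient kidneys, against 3467, 2986 and 4953 in wild-type kidneys. Ret-deficient replicates 1 and 3 lay below every wild-type sample, and replicate 2 was level with the highest one. The log2 difference was -0.39 (SE 0.39, 95% interval -1.32 to 0.53, adjusted p = 0.957). Without Ret-deficient replicate 2 it was -0.79, the 1 case counted above with an unadjusted limma p under 0.05. Because the sample left out was chosen by these genes, no conclusion is drawn from that p. A dimmer Cpox probe set, 1422493_at, read 222.3, 677.6 and 199.3 in Ret-deficient and 222.3, 394.4 and 304.5 in wild-type kidneys, with a log2 difference of 0.06 over all arrays and -0.48 without replicate 2. The third, 1440747_at, was above the floor on 1 of 6 arrays and was not tested.

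The brightest probe set of each membrane gene read highest in Ret-deficient replicate 2. Slc4a1 encodes band 3, the anion exchanger of the red cell membrane that also anchors its protein skeleton. Its brightest probe set, 1434502_x_at, read 5181, 20988 and 7626 in Ret-deficient kidneys, against 7368, 3576 and 9406 in wild-type kidneys. Another probe set, 1416464_at, read 3645, 19355 and 5174 in Ret-deficient and 6359, 2574 and 5852 in wild-type kidneys. In both, Ret-deficient replicate 2 was highest, 2.23-fold and 3.04-fold above the next array, and wild-type replicate 2 was lowest. The log2 difference was 0.58 (SE 0.58, 95% interval -0.81 to 1.97, adjusted p = 0.957) for 1434502_x_at, and 0.00075 without the high sample. The remaining Slc4a1 probe set, 1431743_a_at, lay at or below the floor on all 6 arrays.

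Epb42 encodes protein 4.2, which binds band 3 to the membrane skeleton. Its probe set 1417337_at read 85.6, 380.7 and 184.7 in Ret-deficient kidneys, against 24.2, 99.4 and 151.0 in wild-type kidneys. It was above the floor in 2 of 3 Ret-deficient and 1 of 3 wild-type samples, so no fold change is given. Ret-deficient replicate 2 was again the highest. The other probe set, 1417338_at, was above the floor on 2 of 6 arrays and read highest in wild-type replicate 1. Both Epb42 probe sets fell below the brightness limit for testing.

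The transcription factor genes varied widely in both groups. Klf1 read 815.0, 3812 and 671.3 in Ret-deficient kidneys, against 968.5, 697.9 and 2186 in wild-type kidneys (1418600_at). Ret-deficient replicate 2 was highest and wild-type replicate 3 second, 1.74-fold lower, and the other 4 arrays lay between 671.3 and 968.5. For Klf1 the log2 difference was 0.17 (SE 0.73, 95% interval -1.57 to 1.90, adjusted p = 0.989), and -0.61 without the highest sample. Gata1 read 702.9, 2871 and 433.5 in Ret-deficient kidneys, against 2094, 677.4 and 1240 in wild-type kidneys (1449232_at). Its second highest array was wild-type replicate 1. For Gata1 the log2 difference was -0.33 (SE 0.73, 95% interval -2.07 to 1.42, adjusted p = 0.984), and -1.11 without Ret-deficient replicate 2.

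The exact two-sided permutation test, whose smallest possible p with 3 arrays per group is 0.1, gave p = 0.4 to 1.0 for the 14 tested probe sets. The intervals set the limit of what was measured. For the Hbb-y and Hba-x probe sets they reached at most 0.49 in either direction on the log2 scale. Those of Slc4a1, Cpox, Klf1, Gata1 and Alas2 included changes of more than 1 log2 unit.

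**Figure D2:**
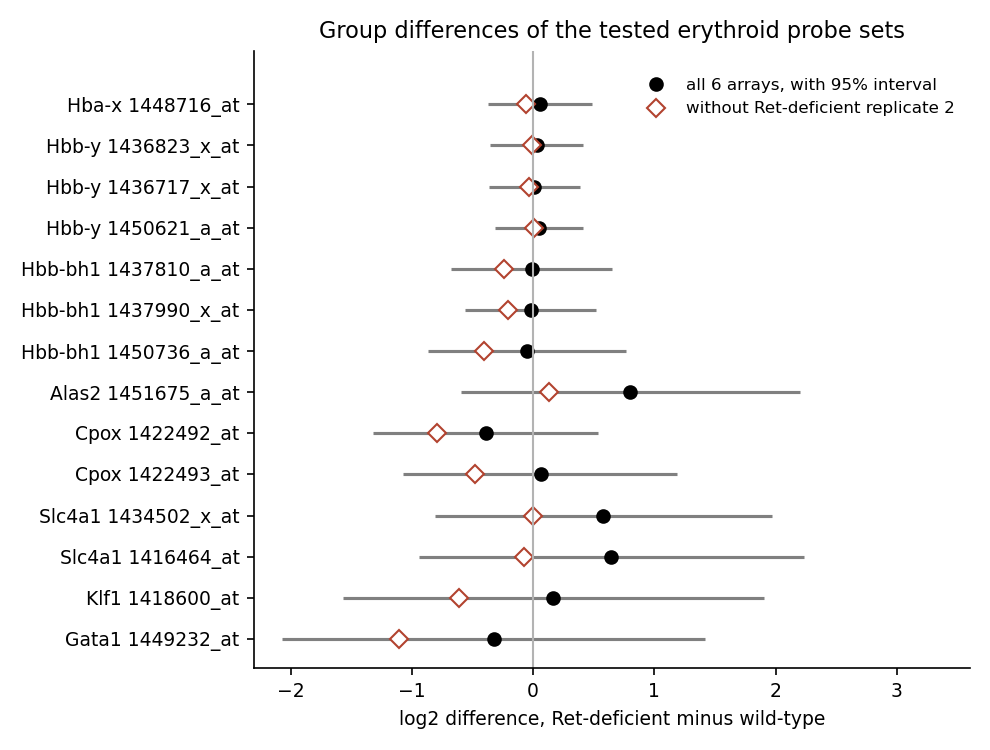
Log2 difference, Ret-deficient minus wild-type, of the 14 tested erythroid probe sets over all 6 arrays (black points, with 95% intervals from limma) and without Ret-deficient replicate 2 (open diamonds). All 14 intervals include 0, and 11 of the 14 diamonds lie at negative differences.

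Read by array, most members shared 1 high sample, Ret-deficient replicate 2, and differed in how they ordered the other arrays. The 8 genes whose brightest probe set was above the floor on all 6 arrays were averaged as log2 deviations from their wild-type mean. Ret-deficient replicates 1, 2 and 3 had an erythroid level of -0.31, 1.01 and -0.37, and wild-type replicates 1, 2 and 3 one of 0.16, -0.46 and 0.30. Ret-deficient replicate 2 thus stood 2.02-fold above the wild-type mean, and the other Ret-deficient samples lay within the wild-type range of 0.728- to 1.23-fold. With median centring, Ret-deficient replicate 3, at -0.461, lay below the lowest wild-type array, at -0.419.

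The pattern was uneven between the kinds of gene. For the 3 embryonic globin genes the deviation in Ret-deficient replicate 2 was 0.28, and for the other 5 genes it was 1.45, or 2.74-fold. In Ret-deficient replicates 1 and 3 the other 5 genes stood at -0.49 and -0.46, against 0.19, -0.64 and 0.46 in the wild-type samples. Wild-type replicate 2 thus lay farther below the wild-type mean than either of these samples. Over all arrays the median tested member spanned 2.55-fold between its lowest and highest array, and the median of all tested probe sets spanned 1.76-fold. Within the wild-type group alone the medians were 1.51-fold for the members and 1.39-fold for all tested probe sets.

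Pairs of members differed in how closely they followed each other. As a description over 6 arrays that share their scaling, Alas2 and Slc4a1 had a Pearson r of 0.96, and 0.95 without Ret-deficient replicate 2. Hba-x and Gata1 had 0.93 and, without that sample, 0.88. For Klf1 and Cpox the values were 0.84 and 0.81. Other pairs had a lower r without the high sample, which was 0.85 for Alas2 and Klf1 over all arrays and 0.51 without it, and 0.63 and 0.20 for Hbb-bh1 and Slc4a1. Hbb-y and Hbb-bh1, neighbouring genes of the beta-globin locus, had 0.22 and -0.08.

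**Figure D3:**
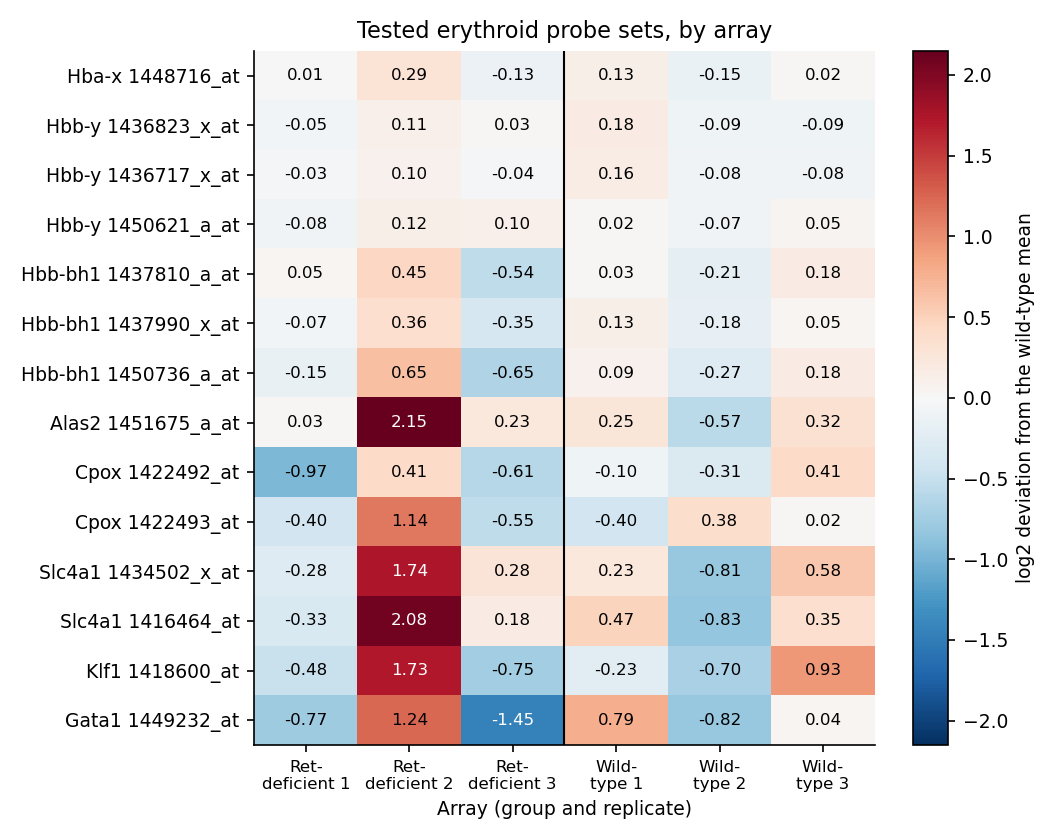
Log2 deviation from the wild-type mean of the 14 tested erythroid probe sets (rows) on each array (columns, Ret-deficient left of the line and wild-type right), with the value in each cell and red for higher. The column of Ret-deficient replicate 2 is red for every probe set, from 0.10 for Hbb-y to 2.15 for Alas2.

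Adult globins had another pattern. Adult beta globins are mainly products of definitive red cells, while adult alpha globins are made in both kinds of cell. The probe set 1427865_at, annotated to the adult beta-globin gene Hbb-b2, read 6520, 19917 and 32977 in Ret-deficient kidneys, against 5119, 4662 and 8609 in wild-type kidneys. It was highest in Ret-deficient replicate 3, a sample in which Gata1 and Hbb-bh1 were at their lowest. The log2 difference was 1.46 (SE 0.59, 95% interval 0.048 to 2.87), and the limma adjusted p was 0.921, so the difference did not pass the test. Wild-type replicate 3 lay above Ret-deficient replicate 1, so the groups overlapped. A probe set annotated to several adult beta-globin genes together, 1417184_s_at, read 27402, 45550 and 46185 in Ret-deficient kidneys, against 9972, 12780 and 29873 in wild-type kidneys (log2 difference 1.31, SE 0.44, adjusted p = 0.866). Without Ret-deficient replicate 2 the 2 probe sets had differences of 1.31 and 1.19. A dimmer Hbb-b2 probe set, 1427866_x_at, did not share this order. It read 288.6, 539.6 and 272.7 in Ret-deficient kidneys, against 188.9, 90.6 and 408.9 in wild-type kidneys, was above the floor on 5 of 6 arrays and was not tested. Ret-deficient replicate 2 was its highest array, and replicate 3 lay below wild-type replicate 3. The adult beta globins are near-identical copies, and Hbb-b1 and Hbb-b2 are names of the haplotype of other strains than C57BL/6, so the copy behind the signal is uncertain.

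Set within each array against the 6 embryonic beta-type probe sets, the 2 adult beta-type probe sets deviated by 0.53, 1.35 and 2.26 log2 units in Ret-deficient replicates 1, 2 and 3. In wild-type replicates 1, 2 and 3 this difference of deviations was -0.53, -0.16 and 0.69. The groups overlapped between Ret-deficient replicate 1 and wild-type replicate 3. For the alpha-type globins, with 4 adult probe sets against that of Hba-x, it was 0.22, 0.26 and 0.51 in Ret-deficient and -0.22, -0.04 and 0.26 in wild-type kidneys, again with overlap. The adult alpha-globin probe set annotated to Hba-a2 alone, 1427219_at, read 18441, 15438 and 16131 in Ret-deficient kidneys, against 5821, 14908 and 17543 in wild-type kidneys. Its 1 low value was in wild-type replicate 1, the array with the high 3 prime to 5 prime ratios, and the part of RNA quality in it was not tested. The probe set of Hba-a1 lay at or below the floor on all 6 arrays.

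**Figure D4:**
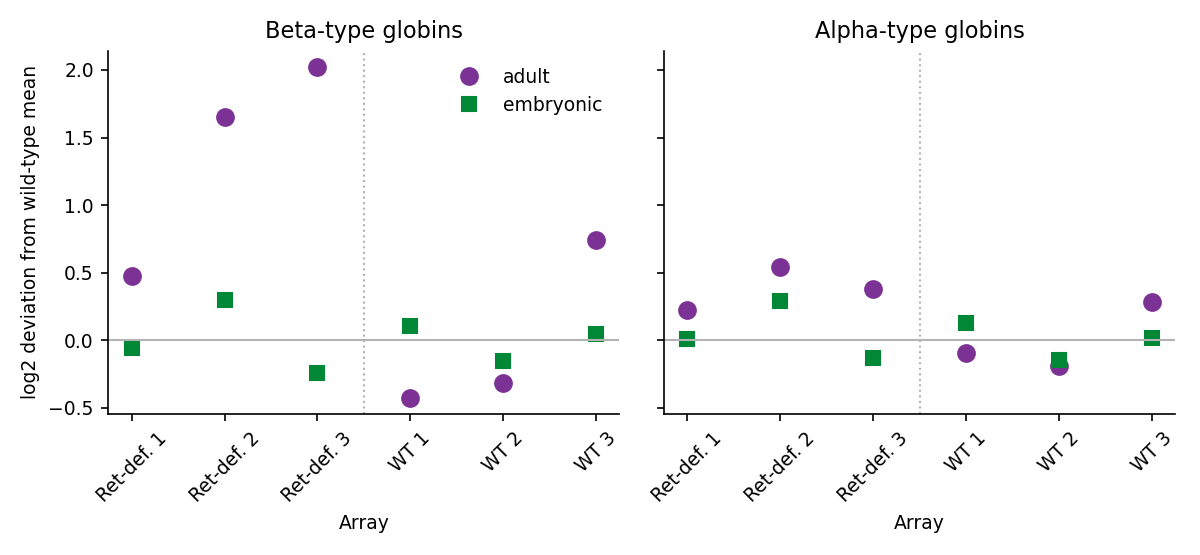
Mean log2 deviation from the wild-type mean of adult (purple circles) and embryonic (green squares) globin probe sets on each array, for beta-type globins (left, 2 adult and 6 embryonic probe sets) and alpha-type globins (right, 4 adult and 1 embryonic). Adult beta-type globins reach 1.65 and 2.02 in Ret-deficient replicates 2 and 3, while the embryonic ones stay between -0.24 and 0.30 on all arrays.

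Other genes of red cells, from a list of 72 genes arranged by role, repeated the single high sample. Of 54 with a tested probe set, limma gave 0 an adjusted p under 0.05 and 2 an unadjusted p under 0.05, Hbb-b2 higher and Myb lower in Ret-deficient kidneys. This is a smaller share of the 54 than the 5.36% found over all tested probe sets. Myb, a factor of dividing blood progenitors, read 3770, 3556 and 4430 in Ret-deficient kidneys, against 6374, 5127 and 5417 in wild-type kidneys, without overlap (log2 difference -0.52, SE 0.17, limma adjusted p = 0.866). Of the 54, 37 differences were positive and 17 negative, with a median of 0.15 that became -0.014 without Ret-deficient replicate 2. On that array 30 of the 54, or 55.6%, read highest.

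By role, the heme enzymes and mitochondrial importers read highest in Ret-deficient replicate 2 for 8 of 9 genes. The brightest pair, Urod (uroporphyrinogen decarboxylase) and Tmem14c (a mitochondrial porphyrin transporter), had log2 differences of -0.0063 and 0.07. Membrane genes read highest there for 8 of 11, among them Rhag, the Rh-associated glycoprotein gene, with 147.5, 1076 and 131.6 in Ret-deficient and 329.7, 154.6 and 257.1 in wild-type kidneys. The bright membrane genes Tmod1 (tropomodulin) and Gypc (glycophorin C) were flat, with log2 differences of -0.06 and 0.15.

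Factors and cofactors read highest in Ret-deficient replicate 2 for 8 of 16 genes. Hemgn, which encodes hemogen, a nuclear protein of blood cells, read 1347, 5584 and 383.8 in Ret-deficient and 1346, 921.6 and 2029 in wild-type kidneys, much as Klf1 did. The bright factor genes Foxo3 and Gata2 had log2 differences of -0.02 and 0.26. Of the 5 genes of erythropoietin signalling 1 was highest there, the receptor gene Epor, with 782.1, 1925 and 551.0 in Ret-deficient and 552.2, 449.7 and 940.7 in wild-type kidneys. The bright genes of this role, the kinase gene Jak2 and its target Stat5b, had differences of -0.25 and 0.08.

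Enzymes and maturation factors read highest in that sample for 5 of 9 genes. Prdx2, a peroxiredoxin abundant in red cells, and the nuclear exporter gene Xpo7 were bright and flat, at 0.02 and -0.06. In iron uptake, 0 of 2 tested genes were highest there. Tfr2 and Steap3, also on this list but too dim to be tested, did read highest there, at 735.1 and 503.9. Both lay above the floor on all 6 arrays. Tfrc, the transferrin receptor gene that all dividing cells use, read 22470, 24198 and 22314 in Ret-deficient kidneys, against 27670, 25942 and 25070 in wild-type kidneys. Its groups did not overlap, but the difference was small (-0.19, SE 0.15, adjusted p = 0.950). Slc11a2, an iron transporter gene, had a difference of -0.20. Myb, Rhag, Hemgn, Epor, Tfr2 and Steap3 were singled out after their values were seen. So were Runx1, Elane, Flt3, Afp, Osr1 and Foxd1 among the markers of other cells.

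Markers of other cells mostly read highest on arrays other than Ret-deficient replicate 2. Of 14 endothelial genes 1 read highest there, and Ret-deficient replicates 1, 2 and 3 had median deviations of 0.08, -0.04 and -0.26, against 0.50, -0.46 and 0.04 in wild-type replicates 1, 2 and 3. The endothelial genes Plvap and Tek had log2 differences of 0.04 and -0.50, and all 14 genes were above the floor on all arrays. Macrophage genes had their highest median deviation in Ret-deficient replicate 3, 1.47 over 9 genes, against -0.08 in replicate 2. Lyz2, 1 of the 9, read highest in wild-type replicate 1. The summed signal of the 9 was 28308 to 79481 in Ret-deficient and 21986 to 35129 in wild-type kidneys. C1qb and Csf1r led it, with differences of 0.68 and 0.60. All 9 differences were positive, with a median of 0.63, and 0.98 without Ret-deficient replicate 2, and 0 of 9 passed the test. Of 9 leukocyte and progenitor genes 3 were above the floor on all 6 arrays (Cd34, Kit and Runx1) and Elane and Flt3 were at or below it on all. The bright ones, Cd34 and Kit, had differences of 0.02 and 0.28.

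Fetal liver genes, markers of the organ that makes definitive red cells, were mostly dim. Of 6 measured, only Apoa1 was above the floor on all 6 arrays, with 984.1, 1070 and 572.7 in Ret-deficient and 608.0, 722.4 and 1276 in wild-type kidneys. Alb read 325.7, 293.5 and 60.9 in Ret-deficient and 305.0, 247.0 and 212.0 in wild-type kidneys, and Afp was at or below the floor on every array. Of 7 kidney genes, 3 differences were positive and 4 negative, with a median of -0.01, and 0 passed the adjusted test. The brightest, Wt1 and Sall1, had differences of -0.02 and -0.18. They ran from -0.46 for Osr1 to 0.93 for Foxd1, a stromal factor gene. Foxd1 read 11833, 7815 and 18372 in Ret-deficient kidneys, against 4633, 7292 and 7314 in wild-type kidneys, without overlap (unadjusted p = 0.0352, limma adjusted p = 0.921). Ureteric epithelium genes had a median of -1.40 over 8 genes. Calb1, the brightest of them, which encodes a calcium-binding protein, read 128.1, 13353 and 20482 in Ret-deficient kidneys, against 21363, 29916 and 28457 in wild-type kidneys. In Ret-deficient replicate 2, the sample with the highest erythroid level, their median deviation was -0.76, close to the -0.76 of replicate 3, while replicate 1 stood at -3.62. Their part in the erythroid values was not tested.

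**Figure D5:**
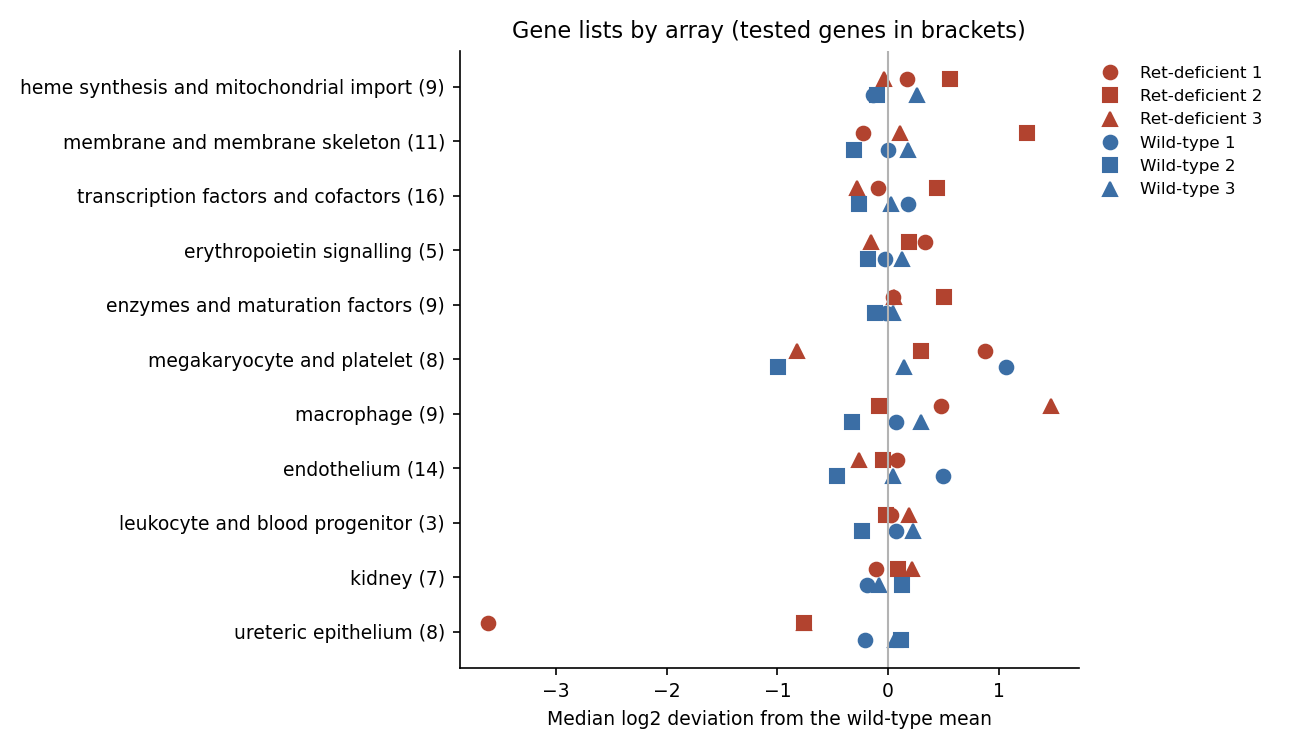
Median log2 deviation from the wild-type mean of the tested genes of each list, on each Ret-deficient (red, upper row of points) and wild-type (blue, lower row) array, for lists with at least 3 tested genes. Ret-deficient replicate 2 (red squares) lies farthest right for heme synthesis (0.56), membrane (1.26), factors (0.44) and maturation genes (0.51). It does not for erythropoietin signalling (0.189, against 0.335 in Ret-deficient replicate 1), macrophage (-0.08) or endothelial genes (-0.04).

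Among 11584 other genes, those whose signal followed the erythroid level most closely over the 6 arrays were named by Pearson r, as a description. The 10 closest were Ubxn7, Dnajc17, Rbfa, Arl3, Sptb, Slc39a8, Hars, Rhag, Rpl39l and Fbxl16, with r between 0.96 and 0.99. Of these, Sptb and Rhag are red cell membrane genes that were also on the list by role, Sptb encoding beta-spectrin. Sptb read 187.8, 724.1 and 155.2 in Ret-deficient kidneys, against 243.0, 171.0 and 411.0 in wild-type kidneys. Ubxn7, the closest, varied far less, with 6119, 8357 and 6141 in Ret-deficient and 6962, 5972 and 6857 in wild-type kidneys. With 6 arrays and 11584 genes ranked, these r values describe likeness of pattern and nothing further.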

How the data were processed

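Whole-kidney RNA was measured on 6 arrays. Per the submitters' processing notes, the authors made the deposited intensity values with MAS5, whose version and scaling target are not stated in the labels. Trimmed means were equal, so arrays had been scaled to a common level. Here log2(signal + 16) was tested in limma 3.58.1 (R 4.3.3) with Benjamini-Hochberg adjustment at 0.05, over the 22519 probe sets with a mean signal of at least 304.5, the median, and without the 64 control probe sets. Of the 45101 probe sets, 34958 had 1 symbol, 932 several and 9211 none, and 99.42% of the first were updated by gene ID. Precision is limited by the small number of arrays. The labels call replicates biological and name no litters, so p-values measure the spread between these samples. Named are all probe sets of the members, the 2 brightest genes of each role or cell list, and the 10 genes most like the erythroid level. Members and lists were chosen with earlier results of these data known. Alternatives were other added values, brightness limits, normalizations and variance models, the replicate number as a block, and leaving out each array. The fit was tested on simulated data. It recovered 17.9% of changes of 1 log2 unit, 55.2% of those of 2 and 95.5% of those of 4, with 9 false calls. In the simulation, changes of 1 log2 unit were thus mostly missed. Its noise was drawn as normal with the SD of each probe set, so these shares need not hold for the real arrays. In the real fit Ret (1436359_at), at -5.43, had a limma adjusted p of 0.299.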

Additional observations from a re-analysis of the deposited data

How the results depend on the processing

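Under all 15 alternatives 0 erythroid probe sets passed an adjusted p of 0.05 in limma, with adjusted p between 0.455 and 1.0. Over all tested probe sets the count was 0, and it became 2 with median centring, 1 with an intensity trend and 2 with array quality weights, and 0 to 1 with an array left out. At an unadjusted p under 0.05 it was 1208 in the main analysis, 2541 with array weights, 2140 without Ret-deficient replicate 3, 2265 of 45037 with no brightness limit, and 734 of 13511 in the brightest 30 percent. Replicates of the same number did not deviate together (r of 0.041, -0.036 and -0.113), so the numbers were not taken to pair samples; with the replicate block 0 erythroid probe sets were called, their median difference was 0.0385 and 1134 of all passed unadjusted.

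Differences of 10 erythroid probe sets changed sign under some alternative, among them that of Slc4a1 1416464_at, which was 0.64 in the main analysis, and the cause was not tested. With array weights they were -0.0495 for Cpox 1422493_at, 0.198, 0.163 and 0.218 for Hbb-bh1 1437810_a_at, 1437990_x_at and 1450736_a_at, and 0.457 for Gata1. Median centring, which moved the median of all probe sets by 0.112, gave 0.0992, 0.0938 and 0.0592 for the same 3 Hbb-bh1 probe sets. Quantile normalization gave -0.0375 for Hbb-y 1436717_x_at and -0.0215 for 1436823_x_at. With each array left out, erythroid probe sets past an unadjusted p of 0.05 numbered 0 to 1 of 14, where 3.67% to 9.5% of all tested probe sets passed, and those without overlap 0 to 2 of 14, where 16.2% to 28.7% of all tested lay apart. Differences then ran from -0.0756 to 1.13 for Slc4a1 1416464_at, -0.614 to 0.63 for Klf1, -0.477 to 0.367 for Cpox 1422493_at and -1.11 to 0.234 for Gata1. They ran from -0.0619 to 0.147 for Hba-x, and for Hbb-y from -0.0366 to 0.0887 (1436717_x_at) and -0.0174 to 0.121 (1436823_x_at). For Hbb-bh1 they ran from -0.244 to 0.249 (1437810_a_at), -0.21 to 0.15 (1437990_x_at) and -0.404 to 0.247 (1450736_a_at). The 2 apart without wild-type replicate 1 (21.5% of all) were of Hbb-y, the 1 without Ret-deficient replicate 1 (20.4%) also, and the 1 without Ret-deficient replicate 2 (18.6%) was of Cpox. The members' median ran from -0.143 to 0.24 with an array left out and was 0.194 with array weights. The erythroid level of Ret-deficient replicate 2 lay between 0.966 and 1.21 under 5 alternatives.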

Other observations

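Platelets and their precursors share a progenitor and the factor GATA1 with red cells, and their genes varied between arrays in another order. The median deviation of 8 megakaryocyte and platelet genes was 0.88, 0.30 and -0.82 log2 units in Ret-deficient replicates 1, 2 and 3, and 1.07, -0.995 and 0.15 in wild-type replicates 1, 2 and 3. Pf4, which encodes platelet factor 4, read 13381, 16872 and 4857 in Ret-deficient kidneys, against 20719, 5079 and 11278 in wild-type kidneys. Clec1b, a platelet receptor gene, read 3860, 5264 and 2812 in Ret-deficient kidneys, against 6330, 5244 and 4984 in wild-type kidneys (log2 difference -0.51, SE 0.26, limma adjusted p = 0.938). None of the 8 read highest in Ret-deficient replicate 2, and 0 of 8 passed an adjusted p of 0.05 in limma, nor an unadjusted p of 0.05.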
